A study of Mus musculus with 6 samples.

Results

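Messenger RNA of 34 genes of glycolysis, gluconeogenesis and glucose or lactate transport was followed in mouse liver at 0, 2 and 7 weeks of treatment. The genes were taken from a fixed list of symbols, chosen with earlier results of these data known, so counts of calls among them are a description. The 34 genes were matched by gene identifier to the GENCODE annotation of the mouse genome, and all were found among the 54446 genes of the deposited count table. The series title names MET/CAT and the Sleeping Beauty (SB) transposase as the treatment; the labels used here do not spell out CAT, and give neither the delivery nor a promoter. Each of weeks 0, 2 and 7 had 2 libraries of polyadenylated RNA, 6 in all, labelled as liver cell, with totals of 49353453 to 58434358 counts. All came from mice of mixed FVB/N and C57BL background, written C57BL/6 for replicate 1 of week 0 and with a different number after the slash for each other sample, so that whether the background was the same in all mice was unclear. Age and sex were not given, no untreated mice stood beside weeks 2 and 7, and nothing says whether the 2 libraries of a week came from separate animals, so p-values measure the spread between libraries, which may be technical.

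Both week 2 libraries had 13236 and 12804 counts of the female-specific RNA Xist and 0 counts of 4 genes of the Y chromosome (Ddx3y, Eif2s3y, Kdm5d and Uty). At week 7 and week 0 those 4 were counted in every library (Ddx3y, 2045 and 2303 counts at week 7, and 2113 and 1897 counts at week 0) and Xist had at most 15 counts. Week 2 and sex cannot be told apart, so every difference between week 2 and another week given here may hold a difference between female and male livers. Week 7 and week 0 had the same sex type. Summed levels of hepatocyte markers (8 genes) were 104000 and 104000 CPM at week 0, 129000 and 122000 CPM at week 2 and 89000 and 88700 CPM at week 7, where CPM are the scaled counts used throughout, and none of the 8 was at 0 counts in any library. Albumin (Alb) made up most of these sums, with 54070 and 54420 CPM at week 7, against 65920 and 65060 CPM at week 0. The other 7 markers did not all follow it: at week 7 against week 0, 4 of the 8 fell and 2 rose (Fgb and Cps1), and at week 2 against week 0, 3 rose and 4 fell.

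Glycolysis splits glucose into pyruvate, and gluconeogenesis rebuilds glucose from lactate, amino acids and glycerol. The liver does both, and uses its own set of proteins, among them the liver phosphofructokinase subunit (Pfkl), the liver pyruvate kinase (Pklr) and the glucose transporter GLUT2 (Slc2a2). Fetal liver and many liver tumours use other isoenzymes, such as hexokinase 2 (Hk2), aldolase A (Aldoa), pyruvate kinase M (Pkm) and the transporter GLUT1 (Slc2a1).

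At week 7 against week 0, 8 of the 34 genes rose and 4 fell. The genes that rose were Aldoa, Tpi1, Eno1, Pkm, Pklr, Ldhb, Pck2 and Pcx, and those that fell were Hk3, Pfkfb3, Pgk1 and G6pc. Of all 15368 genes tested, 13.8% were called in this comparison, 7.58% as higher and 6.23% as lower. A call is an adjusted p under 0.05 in edgeR's quasi-likelihood test, adjusted by Benjamini-Hochberg over all genes tested. The median log2 fold change was 0.058 over the 34 genes and 0.00156 over all tested genes. Levels are in CPM, the counts divided by the TMM-scaled library size and set to a common total. The 34 genes were well covered, with a median of 57.1 CPM against 9.02 CPM over all tested genes, and 24 of them lay above the median of all tested genes. A change of a given size is easier to call at a higher level. The shares over all genes were not matched for level, so a larger share among the 34 is not by itself a trait of the pathway.

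At week 2 against week 0, 17 of the 34 genes were called, against 18.6% of all genes tested. The 9 that rose were Hk2, Tpi1, Gapdh, Eno1, Pkm, Slc2a1, Pck2, Fbp1 and Pcx, where 9.81% of all genes were called higher. The 8 that fell were Pfkm, Pfkfb3, Aldoc, Pgk1, Slc2a2, Pck1, G6pc and Slc37a4, where 8.81% of all genes were called lower. This split depended on scaling. With library totals alone, 10 of the 34 were called higher and 3 lower, all genes gave 2007 higher and 913 lower calls, against 1508 higher and 1354 lower calls with TMM, and the median log2 fold change of all genes was 0.105. Under that scaling Pfkm, Aldoc, Pgk1, Slc2a2 and Pck1 were no longer called, while G6pc, Pfkfb3 and Slc37a4 still were. At week 7 against week 2, 11 of the 34 were called, 7 higher and 4 lower, against 19.8% of all genes tested (10.1% higher and 9.73% lower). The 7 higher were Pfkm, Pfkfb3, Aldoa, Pklr, Ldha, G6pc and Slc37a4, and the 4 lower were Hk2, Hk3, Gapdh and Fbp1. The 3 comparisons share libraries in pairs and are not independent of each other.

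**Figure D1:**
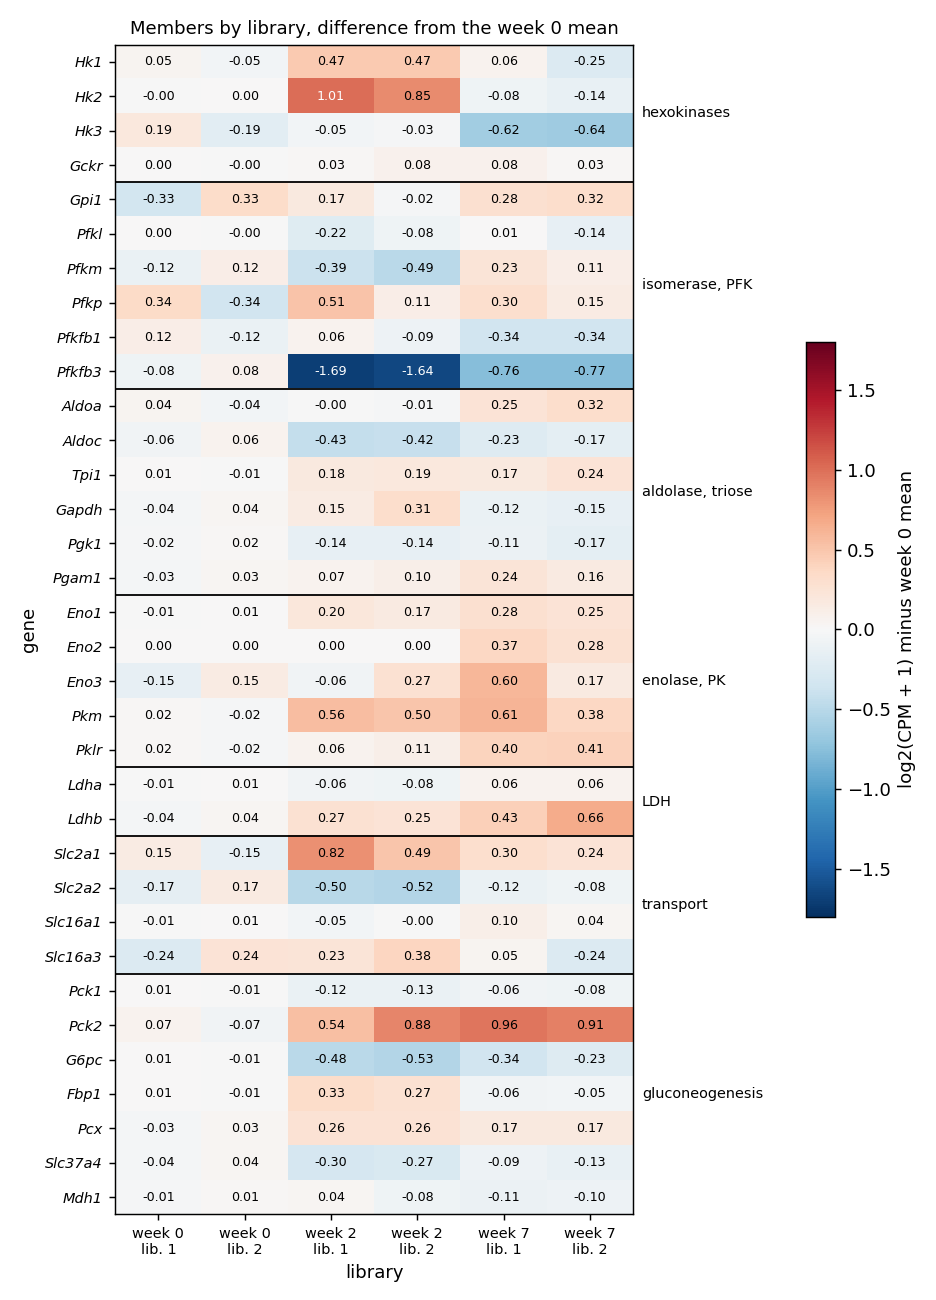
Level of each of the 34 genes in each of the 6 libraries, as log2(CPM + 1) minus the gene's mean at week 0 (colour and printed value; rows are genes grouped by step, columns are libraries by week and replicate, marked lib. 1 and lib. 2). Hk2 was high in both week 2 libraries and Pfkfb3 low in them, while most rows varied little.

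**Figure D2:**
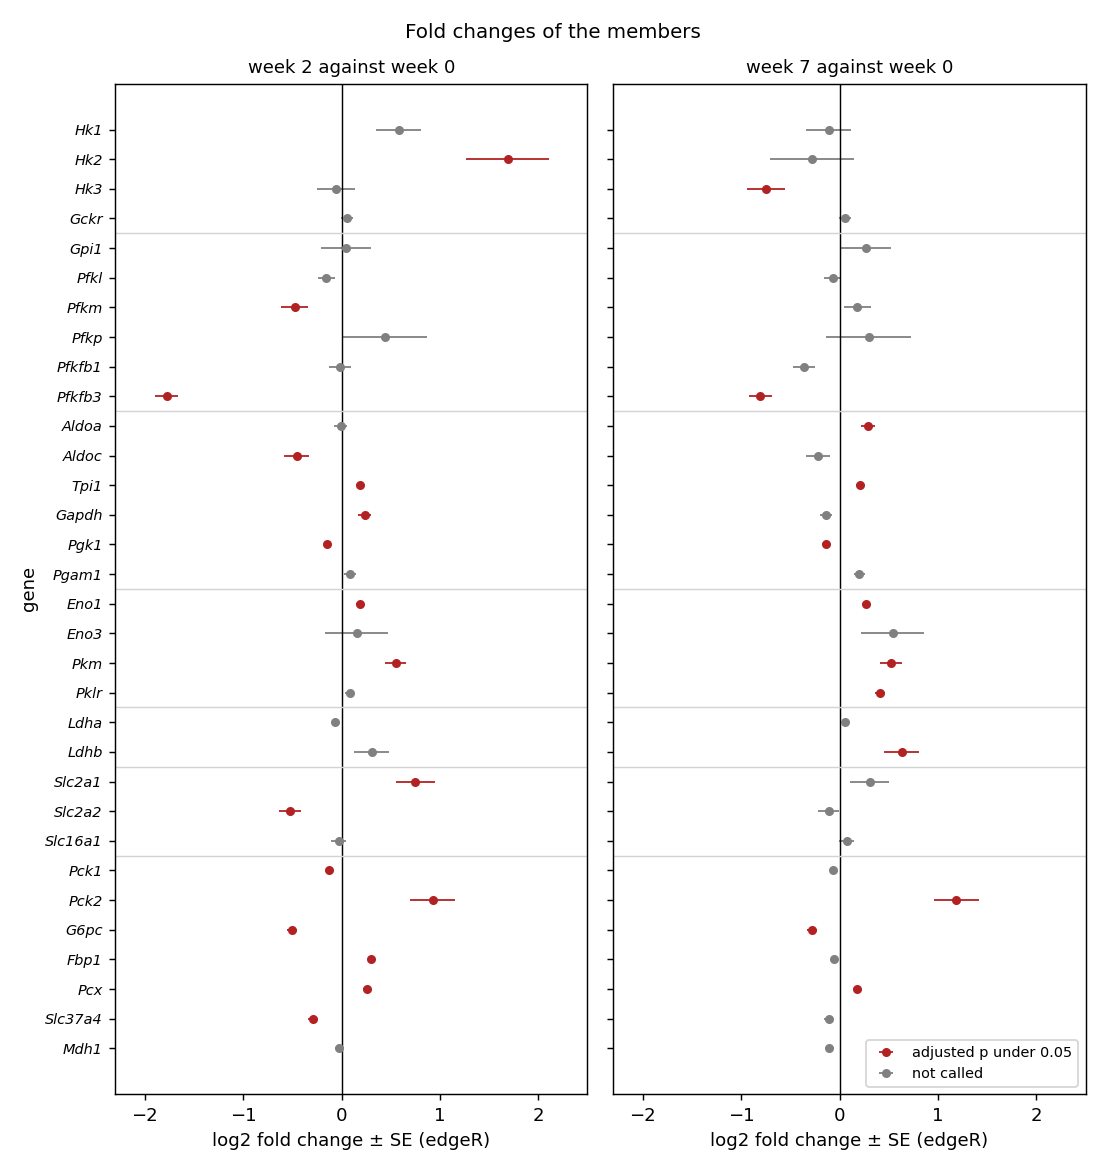
Log2 fold change of week 2 over week 0 (left) and week 7 over week 0 (right), with standard errors derived from the edgeR test. Red points are calls at an adjusted p under 0.05 and grey points are not called. Eno2 and Slc16a3 are left out because libraries of a compared week were at 0 counts. The largest drop in both panels was that of Pfkfb3, and the largest rises were those of Hk2 at week 2 and Pck2 at week 7.

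The proximal promoters of 4 genes are shown, because these genes mark the steps at which the weeks differed: the liver and M-type pyruvate kinases, the glucose-releasing enzyme G6pc and the regulatory enzyme Pfkfb3. Each is a RefSeq window of GRCm38.p6 of 300 bases, 250 before and 50 after an annotated start, and is written 5′ to 3′ on the gene's strand. Pklr is chr3:89136373-89136672 (plus strand), Pkm is chr9:59656977-59657276 (plus), G6pc is chr11:101367466-101367765 (plus) and Pfkfb3 is chr2:11502041-11502340 (minus). Pklr, Pkm and Pfkfb3 each have 2 windows in the table, and the window shown is the one with the E-box for Pfkfb3 and the only one with a match for Pklr and Pkm. Capitals mark matches to the searched motifs.

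Pklr: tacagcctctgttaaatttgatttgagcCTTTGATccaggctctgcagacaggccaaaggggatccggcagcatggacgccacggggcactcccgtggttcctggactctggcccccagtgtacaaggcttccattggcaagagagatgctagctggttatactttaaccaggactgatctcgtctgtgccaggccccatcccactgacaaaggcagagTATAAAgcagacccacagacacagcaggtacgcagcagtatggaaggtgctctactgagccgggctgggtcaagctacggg
Pkm: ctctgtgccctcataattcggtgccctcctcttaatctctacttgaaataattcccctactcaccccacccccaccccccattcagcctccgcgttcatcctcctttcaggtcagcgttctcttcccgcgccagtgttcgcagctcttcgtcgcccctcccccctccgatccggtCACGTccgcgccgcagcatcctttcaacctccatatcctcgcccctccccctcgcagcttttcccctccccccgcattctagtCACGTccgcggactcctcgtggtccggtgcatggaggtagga
G6pc: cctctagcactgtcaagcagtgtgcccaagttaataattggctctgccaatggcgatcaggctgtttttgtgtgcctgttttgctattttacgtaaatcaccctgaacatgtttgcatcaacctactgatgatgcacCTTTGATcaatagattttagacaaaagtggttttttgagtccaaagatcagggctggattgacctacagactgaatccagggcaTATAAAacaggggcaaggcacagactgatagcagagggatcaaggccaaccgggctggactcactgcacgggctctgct
Pfkfb3: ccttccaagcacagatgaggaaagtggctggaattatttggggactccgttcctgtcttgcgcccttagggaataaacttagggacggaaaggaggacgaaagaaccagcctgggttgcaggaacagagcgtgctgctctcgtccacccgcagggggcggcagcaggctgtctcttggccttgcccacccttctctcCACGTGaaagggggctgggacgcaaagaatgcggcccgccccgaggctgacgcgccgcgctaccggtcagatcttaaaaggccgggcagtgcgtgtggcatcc

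A set of 6 motifs was searched on both strands in all 32851 promoter windows: the E-box CACGTG, the core ACGTG bound by hypoxia-inducible factors, the FOXO site TGTTTAC, the TCF site CTTTGAT, the cyclic AMP response element TGACGTCA and the TATA box TATAAA. The TCF site was in 3.73% of all windows and in 2 of the 53 windows of the 34 genes. It lay in Pklr at position -222 and in G6pc at position -113 from the start. The E-box was in 7.15% of all windows and in 5 of these 53, of Ldha, Pcx, Pfkfb3, Pfkm and Slc16a1. In Pfkfb3 it began at position -53. The hypoxia core, which lies inside every E-box on both strands, was in 19.6% of all windows and in 20 of the 53. These 20 belonged to 17 of the 34 genes, and Pkm held the core at positions -75 and 9. The TATA box was in 13.6% of all windows and in 6 of the 53, and began at -31 in Pklr and -29 in G6pc. The FOXO site (3.65% of all windows) was in 1 of the 53, of Aldoc, and the cyclic AMP element (1.79%) in 1, of Ldha. These are matches of letters in a short window and do not show that a factor binds.

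Among the genes of glucose phosphorylation, Hk2 rose at week 2 and Hk3 fell at week 7, both against week 0, and Hk1 and Gckr were not called in any comparison. Gckr, a nuclear regulatory protein of the hepatocyte, had 92.4 and 88.9 CPM at week 7, against 87.4 and 87.1 CPM at week 0. Hk2, the insulin-responsive hexokinase of muscle and many tumours, was at 2.39 and 2.03 CPM (143 and 120 counts) at week 2, against 0.681 and 0.684 CPM (34 and 33 counts) at week 0. It was 3.23-fold higher at week 2 (log2 fold change 1.69 ± 0.42 (SE), adjusted p = 0.0229), but at week 7 it was at 0.593 and 0.528 CPM (adjusted p = 0.751 against week 0). Hk2 was thus high in both female-type libraries of week 2 and low in the other 4, and leaving out any library of weeks 2 or 0 gave adjusted p between 0.0787 and 0.157. At week 7 against week 2, Hk2 fell by 1.97 on the log2 scale (adjusted p = 0.0115), with adjusted p = 0.097 without week 2 replicate 1, 0.0533 without week 2 replicate 2 and 0.0575 without week 7 replicate 2.

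Hk1, the housekeeping hexokinase, had 3.63 and 3.32 CPM at week 0, 5.19 and 5.20 CPM at week 2 and 3.67 and 2.76 CPM at week 7, and was not called in any comparison (adjusted p = 0.119 at week 2 against week 0). Hk3, a hexokinase found mainly in myeloid cells, was at 4.85 and 4.77 CPM at week 7, against 9.26 and 6.90 CPM at week 0. It fell 1.68-fold (adjusted p = 0.0344), and both week 7 libraries lay below both week 0 libraries, which were themselves apart. The adjusted p was between 0.0598 and 0.187 when any library other than week 0 replicate 2 was left out. At week 7 against week 2 Hk3 fell by 0.69 on the log2 scale (adjusted p = 0.0357), with adjusted p between 0.118 and 0.13 when any single library of those weeks was left out. Summed levels of 8 Kupffer cell and macrophage markers were also lower at week 7 than at week 0, at 464 and 456 CPM at week 0, 662 and 660 CPM at week 2 and 357 and 349 CPM at week 7. Of these 8 markers, 6 fell and none rose at week 7 against week 0, and none was at 0 counts. At week 2 against week 0, 6 of the 8 rose and none fell. Hk3, at 7.705 and 7.832 CPM at week 2, was not called there (adjusted p = 0.889). Neutrophil markers (6 genes) summed to 2.78 and 1.72 CPM at week 0, 3.45 and 2.75 CPM at week 2 and 2.09 and 1.6 CPM at week 7. None of the 5 tested was called at week 7 against week 0. The part of these cell types in the values of Hk3 was not tested. In bulk libraries fewer cells of a type and less RNA per cell cannot be told apart.

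Both glucose transporters were called at week 2 and neither at week 7, each against week 0; week 7 against week 2 gave adjusted p = 0.158 for Slc2a1 and 0.0549 for Slc2a2. Slc2a2, the liver transporter GLUT2, was at 179 and 177 CPM at week 2, against 226 and 286 CPM at week 0. It fell 1.44-fold at week 2 (adjusted p = 0.028) and had 233 and 241 CPM at week 7, between the 2 week 0 libraries. It was no longer called without week 2 replicate 1 (adjusted p = 0.136), week 2 replicate 2 (0.15), week 7 replicate 1 (0.0897) or week 7 replicate 2 (0.0903). Slc2a1, the broadly expressed transporter GLUT1, had 10.8 and 8.42 CPM at week 2, against 6.41 and 5.04 CPM at week 0. It rose 1.68-fold at week 2 (adjusted p = 0.0304), and its week 7 libraries, at 7.22 and 6.92 CPM, did not pass the test against week 0 (adjusted p = 0.38). It was no longer called without week 0 replicate 2 (adjusted p = 0.15) or week 2 replicate 1 (0.201). Per kilobase of merged exon, mean Slc2a1 was 2.02 CPM and Slc2a2 41.2 CPM at week 7, so GLUT2 was the higher of the pair.

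At the phosphofructokinase step, the regulatory enzyme Pfkfb3 fell in both weeks against week 0, and none of the 3 catalytic subunits was called at week 7 against week 0. Pfkfb3 makes fructose 2,6-bisphosphate, a strong activator of phosphofructokinase. It was at 27.5 and 30.9 CPM at week 0, 8.34 and 8.68 CPM at week 2 and 16.8 and 16.6 CPM at week 7. All 3 weeks were apart: Pfkfb3 fell 1.75-fold at week 7 against week 0 (log2 fold change -0.81 ± 0.12 (SE), adjusted p = 0.00216) and 3.43-fold at week 2 against week 0 (adjusted p = 1.11e-05), and was 1.96-fold higher at week 7 than at week 2 (adjusted p = 0.000493). These 3 calls were kept in each of the 15 alternatives tried. Pfkfb1, the liver form of the same enzyme, had 22.2 and 22.3 CPM at week 7, against 31.0 and 26.2 CPM at week 0, and missed the threshold (log2 fold change -0.36 ± 0.11 (SE), adjusted p = 0.0707).

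Pfkl, the liver phosphofructokinase subunit, had 49.2 and 44.3 CPM at week 7, against 49.02 and 48.97 CPM at week 0, and was not called in any comparison. Pfkm, the muscle subunit, was at 11.3 and 10.6 CPM at week 2, against 13.9 and 16.6 CPM at week 0, and fell 1.39-fold (adjusted p = 0.0425). Its week 7 libraries had 18.0 and 16.5 CPM, overlapping week 0 (adjusted p = 0.465) and 1.58-fold higher than week 2 (adjusted p = 0.0104). The fall of Pfkm at week 2 had adjusted p between 0.0585 and 0.218 when any library other than week 0 replicate 1 was left out, and the rise at week 7 against week 2 had 0.0688 without week 2 replicate 2 and 0.063 without week 7 replicate 1. Pfkp, the platelet subunit often raised in tumours, was at 2.08 and 1.78 CPM at week 7, against 2.16 and 0.975 CPM at week 0, and the weeks overlapped. Gpi1, which turns glucose 6-phosphate into fructose 6-phosphate, had 145 and 148 CPM at week 7, against 94.5 and 149 CPM at week 0; week 0 replicate 1 was low and the gene was not called.

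From aldolase to enolase the calls were small changes in abundant RNAs. The symbol Aldoa had 2 identifiers in the count table, and only the identifier with the most counts was used. Aldoa, the muscle and fetal aldolase, was at 65.0 and 61.1 CPM at week 0, 62.8 and 62.4 CPM at week 2 and 75.1 and 79.0 CPM at week 7. It rose 1.22-fold against week 0 (adjusted p = 0.0239) and 1.23-fold against week 2 (adjusted p = 0.0151). Leaving out any library of weeks 7 or 0 gave adjusted p between 0.0502 and 0.133 for the comparison of those weeks, and the comparison with week 2 had 0.0709 and 0.076 without week 2 replicates 1 and 2 and 0.0795 without week 7 replicate 2. Aldoc, the brain aldolase, had 13.9 and 14.5 CPM at week 7, against 15.7 and 17.2 CPM at week 0 (adjusted p = 0.308). At week 2 Aldoc was at 12.0 and 12.0 CPM and fell 1.37-fold against week 0 (adjusted p = 0.0336), with adjusted p between 0.0656 and 0.156 when any single library of those weeks was left out. The processed pseudogenes of Aldoa, Tpi1, Gapdh, Pgk1, Pgam1 and Ldha, and the near-identical Eno1b beside Eno1, can take reads of these genes, so their levels are uncertain where the counting split them.

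Tpi1, which interconverts the triose phosphates, was at 261 and 258 CPM at week 0, 295 and 297 CPM at week 2 and 293 and 308 CPM at week 7. It rose 1.16-fold at week 7 (adjusted p = 0.01) and 1.14-fold at week 2 (adjusted p = 0.012) against week 0. The call at week 7 was lost without week 0 replicate 1 (adjusted p = 0.0539) or replicate 2 (0.0643), and that at week 2 when any single library of weeks 2 or 0 was left out (between 0.0601 and 0.0792). Gapdh, which oxidises glyceraldehyde 3-phosphate, had 147 and 156 CPM at week 0, 168 and 189 CPM at week 2 and 139 and 136 CPM at week 7. It was 1.29-fold lower at week 7 than at week 2 (adjusted p = 0.00357) in each of the 15 alternatives, and was not called at week 7 against week 0 (adjusted p = 0.204). Its rise at week 2 against week 0 (1.18-fold, adjusted p = 0.0326) was lost without week 0 replicate 1 (0.172), week 0 replicate 2 (0.0603) or week 2 replicate 2 (0.21).

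Pgk1, which makes the first ATP of the pathway, had 310 and 320 CPM at week 0, 285 and 286 CPM at week 2 and 292 and 280 CPM at week 7. It fell by 0.14 on the log2 scale in both weeks against week 0 (adjusted p = 0.0494 at week 7 and 0.0383 at week 2). Both calls were weak: leaving out any of the 6 libraries gave adjusted p between 0.0675 and 0.235 at week 7, and leaving out any library of weeks 2 or 0 gave 0.084 to 0.198 at week 2. With library totals alone the log2 fold changes were -0.10 at week 7 (adjusted p = 0.171) and -0.05 at week 2 (0.492). Pgam1, the phosphoglycerate mutase, was at 104 and 98.8 CPM at week 7, against 86.2 and 90.2 CPM at week 0, and missed the threshold (adjusted p = 0.0581).

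Both pyruvate kinase genes were higher at week 7 than at week 0, and so was enolase 1. Eno1, which makes phosphoenolpyruvate in most tissues, was at 180 and 182 CPM at week 0, 208 and 203 CPM at week 2 and 220 and 216 CPM at week 7. It rose 1.21-fold at week 7 (adjusted p = 0.00334) and 1.14-fold at week 2 (adjusted p = 0.0142) against week 0. The call at week 7 was kept in each of the 15 alternatives, and that at week 2 had adjusted p between 0.0524 and 0.107 when any single library of weeks 2 or 0 was left out. Eno3, the muscle enolase, was at 3.87 and 2.60 CPM at week 7, against 1.90 and 2.55 CPM at week 0, and was not called. Markers of skeletal muscle (6 genes) summed to at most 1.05 CPM in any library, and Acta1, Tnnt3 and Myh4 were at 0 counts in all 6. Eno2, the neuronal enolase, had 16 and 11 counts at week 7, against 0 counts in all libraries of weeks 0 and 2. The limit that 3 read pairs allow, taken as 12 counts, was 0.228 CPM at week 7, and the values of 0.296 and 0.215 CPM lay on both sides of it (adjusted p = 0.192).

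Pklr, the liver and red cell pyruvate kinase, was at 148 and 143 CPM at week 0, 151 and 157 CPM at week 2 and 193 and 194 CPM at week 7. It was 1.33-fold higher at week 7 than at week 0 (log2 fold change 0.41 ± 0.05 (SE), adjusted p = 0.000584) and 1.25-fold higher than at week 2 (adjusted p = 0.00121), and both calls were kept in each of the 15 alternatives. Week 2 did not pass the test against week 0 (adjusted p = 0.264). Erythroid markers (6 genes) summed to 500 and 510 CPM at week 7, against 538 and 557 CPM at week 0, and none of the 5 tested was called. Pkm, the form of most other tissues and of tumours, was at 19.7 and 19.3 CPM at week 0, 29.2 and 27.9 CPM at week 2 and 30.4 and 25.6 CPM at week 7. It rose 1.44-fold at week 7 (adjusted p = 0.0143) and 1.47-fold at week 2 (adjusted p = 0.00803). The call at week 7 was lost without week 0 replicate 1 (adjusted p = 0.0607), week 0 replicate 2 (0.0722) or week 7 replicate 1 (0.0973), and that at week 2 without week 2 replicate 1 (0.0556).

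Per kilobase of merged exon, Pkm made up 7.97% and 8.02% of the pyruvate kinase RNA in the week 0 libraries, 11.1% and 10.3% in those of week 2 and 9.26% and 7.88% in those of week 7. The share at week 7 overlapped that at week 0, and the share at week 2 was above both. The table gives 1 count for the whole Pkm gene, so its M1 and M2 splice forms were not told apart. Pkm is also expressed by non-hepatocyte cells of the liver. Stellate cell and fibroblast markers (8 genes) summed to 194 and 199 CPM at week 0, 305 and 302 CPM at week 2 and 142 and 148 CPM at week 7, and endothelial markers (8 genes) to 308 and 323 CPM at week 0, 396 and 369 CPM at week 2 and 288 and 293 CPM at week 7. No gene of either list was at 0 counts. Of the 8 stellate cell and fibroblast markers, 4 fell and 1 rose (Reln, 1.61-fold) at week 7 against week 0, and 5 rose and 1 fell (Lrat, 1.49-fold) at week 2 against week 0. Of the 8 endothelial markers, Clec4g alone was called at week 7 against week 0, where it fell, with 64.2 and 61.4 CPM at week 7, against 81.8 and 85.9 CPM at week 0; at week 2 against week 0, 3 rose. The other lists did not move the same way at week 7. T, NK and B cell markers (8 genes) summed to 3.19 and 2.28 CPM at week 0, 8.02 and 8.24 CPM at week 2 and 7.39 and 8.35 CPM at week 7. Jchain made up most of the week 7 sums, at 5.35 and 4.85 CPM, against 1.08 and 0 CPM at week 0, and was not called. At week 7 against week 0 none of the 8 was called higher and 1 lower (Ms4a1). Cholangiocyte markers (6 genes) summed to 19.3 and 19.8 CPM at week 0, 30.4 and 37.2 CPM at week 2 and 19.3 and 19.5 CPM at week 7. Of these Krt19 alone was called at week 7 against week 0, at 4.52 and 4.68 CPM at week 7, against 0.281 and 0.746 CPM at week 0 (adjusted p = 0.0011). At week 2 against week 0, 2 of the 6 rose, Krt19 (4.65 and 5.77 CPM at week 2) and Spp1, and none fell. The part of any of these cell types in the values of Pkm, Hk2 and Slc2a1, at week 7 or week 2, was not tested. Proliferation markers (6 genes) summed to 12.4 and 13.5 CPM at week 0, 26.4 and 23.3 CPM at week 2 and 23.7 and 25.1 CPM at week 7. Against week 0, 3 of them rose at week 2 and 4 at week 7, and none fell.

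**Figure D3:**
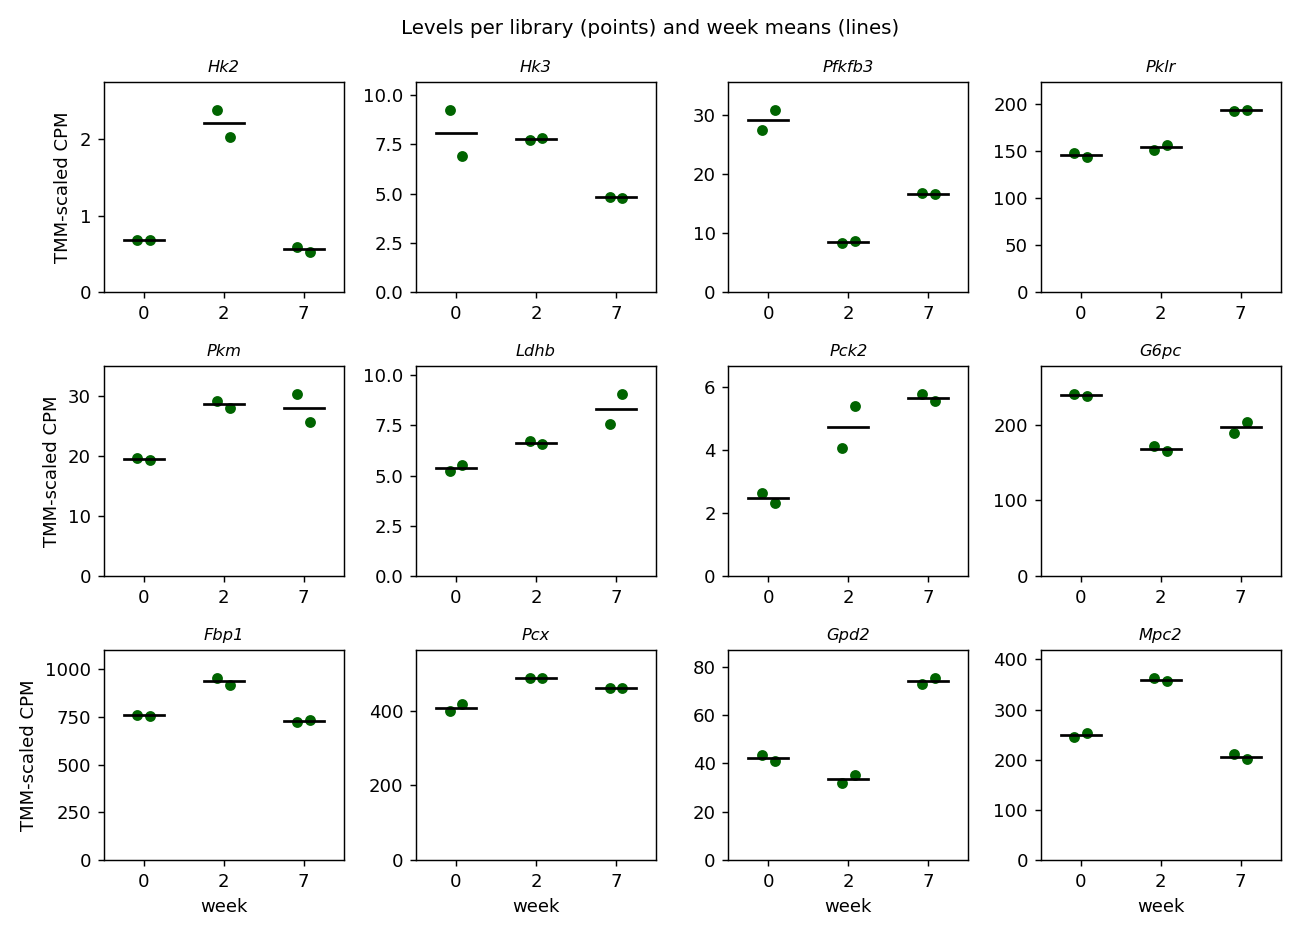
Scaled CPM of 10 of the 34 genes and of Gpd2 and Mpc2 in each library (points) with the mean of each week (line), with weeks on the x axis and each y axis starting at 0. Pfkfb3 was lowest at week 2, Pklr was high at week 7 alone, and Pkm and Pck2 were above week 0 in all libraries of weeks 2 and 7.

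Of the 4 lactate dehydrogenase and lactate transporter genes, Ldhb alone was called at week 7 against week 0. Ldha, the main lactate dehydrogenase subunit here, was at 601 and 604 CPM at week 7, against 576 and 580 CPM at week 0, and was not called between them (log2 fold change 0.06 ± 0.03 (SE)). Against week 2, with 554 and 549 CPM, it was 1.09-fold higher at week 7 (adjusted p = 0.0199), a call lost without week 2 replicate 1 (0.0985), week 2 replicate 2 (0.145), week 7 replicate 1 (0.0543) or week 7 replicate 2 (0.0619). With library totals alone or upper-quartile scaling, its log2 fold change of 0.13 shrank to 0.07 and was not called either (adjusted p = 0.177 and 0.162). Ldhb, the heart subunit, had 7.56 and 9.08 CPM at week 7, against 5.21 and 5.54 CPM at week 0. It rose 1.55-fold (adjusted p = 0.0479), but leaving out any of the 6 libraries gave adjusted p between 0.0691 and 0.217. The lactate transporter Slc16a1 (MCT1) had 43.4 and 41.6 CPM at week 7, against 40.0 and 40.8 CPM at week 0, and was not called. Slc16a3 (MCT4), the exporter of glycolytic tissues, was not called; its counts were 0 and 19 (week 0), 23 and 32 (week 2) and 12 and 0 (week 7). At these counts a difference was not detectable.

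Of the 7 gluconeogenesis genes, 2 rose and 1 fell at week 7 against week 0, and 3 rose and 3 fell at week 2, where 13.8% (week 7) and 18.6% (week 2) of all genes tested were called. G6pc, the catalytic subunit of glucose 6-phosphatase that releases free glucose, was at 241 and 237 CPM at week 0, 171 and 166 CPM at week 2 and 189 and 204 CPM at week 7. It fell 1.22-fold at week 7 (adjusted p = 0.00618) and 1.42-fold at week 2 (adjusted p = 0.000142) against week 0, and both calls were kept in each of the 15 alternatives. It was 1.17-fold higher at week 7 than at week 2 (adjusted p = 0.0135), which was lost with upper-quartile scaling (adjusted p = 0.0523) and without week 2 replicate 2 (0.0985) or week 7 replicate 2 (0.0751). Slc37a4, the carrier that brings glucose 6-phosphate to that enzyme, had 163 and 159 CPM at week 7, against 170 and 179 CPM at week 0 (adjusted p = 0.18). At week 2 it was at 141 and 144 CPM and fell 1.22-fold against week 0 (adjusted p = 0.0034) in each of the 15 alternatives. Its rise at week 7 against week 2 (adjusted p = 0.0322) was lost when any single library of those weeks was left out (adjusted p between 0.0711 and 0.158), with library totals alone (0.151) and with upper-quartile scaling (0.112).

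Pck1, the cytosolic phosphoenolpyruvate carboxykinase, had the highest level per kilobase of the 34 genes and changed little, at 2274 and 2236 CPM at week 0, 2071 and 2066 CPM at week 2 and 2159 and 2135 CPM at week 7. It was not called at week 7 against week 0 (adjusted p = 0.101) and fell by 0.12 on the log2 scale at week 2 against week 0 (adjusted p = 0.00829). That call was lost with library totals alone (adjusted p = 0.469) and without week 0 replicate 1 (0.0736), week 2 replicate 1 (0.0704) or week 2 replicate 2 (0.0972). Pck2, the mitochondrial form, was at 2.65 and 2.32 CPM at week 0, 4.07 and 5.39 CPM at week 2 and 5.78 and 5.54 CPM at week 7. It rose 2.28-fold at week 7 (log2 fold change 1.19 ± 0.23 (SE), adjusted p = 0.00998) and 1.90-fold at week 2 (adjusted p = 0.0226) against week 0. The call at week 7 was lost without week 0 replicate 2 (adjusted p = 0.0569) or week 7 replicate 1 (0.0524), and that at week 2 without week 0 replicate 1 (0.0609), week 0 replicate 2 (0.105) or week 2 replicate 2 (0.151). Per kilobase of merged exon, mean Pck2 was 0.725 CPM and Pck1 626 CPM at week 7, so the cytosolic form was by far the higher.

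Pcx, pyruvate carboxylase, which makes oxaloacetate, was at 399 and 416 CPM at week 0, 488 and 487 CPM at week 2 and 460 and 460 CPM at week 7. It rose 1.13-fold at week 7 (adjusted p = 0.0133; 0.105 without week 0 replicate 1) and 1.20-fold at week 2 (adjusted p = 0.00118, kept in each of the 15 alternatives). Fbp1, the fructose 1,6-bisphosphatase that opposes phosphofructokinase, had 725 and 733 CPM at week 7, against 760 and 754 CPM at week 0, and was not called between them (adjusted p = 0.333). Fbp1 at week 2 was at 954 and 916 CPM, 1.24-fold higher than week 0 (adjusted p = 0.000235), and week 7 was 1.28-fold lower than week 2 (adjusted p = 8.65e-05). Both of those calls were kept in each of the 15 alternatives. Mdh1, the cytosolic malate dehydrogenase, had 468 and 471 CPM at week 7, against 499 and 509 CPM at week 0, and was not called.

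For 7 pairs of isoenzymes, the log2 ratio of the non-liver to the liver form was computed in each library from CPM plus a prior of 1. With 2 libraries a week the smallest 2-sided exact p is 0.333, so the ratios have no test. At week 7 the ratio was above week 0 in both libraries for 3 pairs, below it for 1 and overlapping for 3. Such separation was common among the genes listed here, as 27 of the 34 themselves did not overlap between these weeks. The share over all genes was not computed, so this count shows nothing particular to the 34. Ldhb over Ldha was -6.14 and -5.91 at week 7, against -6.54 and -6.47 at week 0, a change of 0.48. Slc2a1 over Slc2a2 was -4.83 and -4.93 at week 7, against -4.94 and -5.57 at week 0, and the change of 0.37 was 0.06 without week 0 replicate 2. Pfkm over Pfkl was -1.40 and -1.37 at week 7, against -1.74 and -1.51 at week 0, and lay closest to equal levels of the 3 pairs that were above.

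The pyruvate kinase ratio at week 7 overlapped that at week 0. Pkm over Pklr was -2.84 and -2.83 (week 0), -2.33 and -2.45 (week 2) and -2.63 and -2.87 (week 7), and both week 2 libraries lay above both week 0 libraries. Pfkfb3 over Pfkfb1 was lower in both treated weeks: it was -0.17 and 0.23 (week 0), -1.72 and -1.51 (week 2) and -0.39 and -0.40 (week 7). At week 2 against week 0, 4 pairs were above in both libraries, 2 below and 1 overlapping. Between those weeks 24 of the 34 genes themselves did not overlap, and here too the share over all genes was not computed. Slc2a1 over Slc2a2 was above week 0 by 1.17. Per kilobase, the liver form was the larger of its pair in every library for each of the 7 pairs: the highest share of a non-liver form was 42.7%, for Pfkm beside Pfkl in week 7 replicate 2. These shares depend on the merged exon lengths, which cover all annotated transcripts of a gene. By CPM alone, Pfkfb3 was above Pfkfb1 in week 0 replicate 2 (30.9 against 26.2 CPM).

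**Figure D4:**
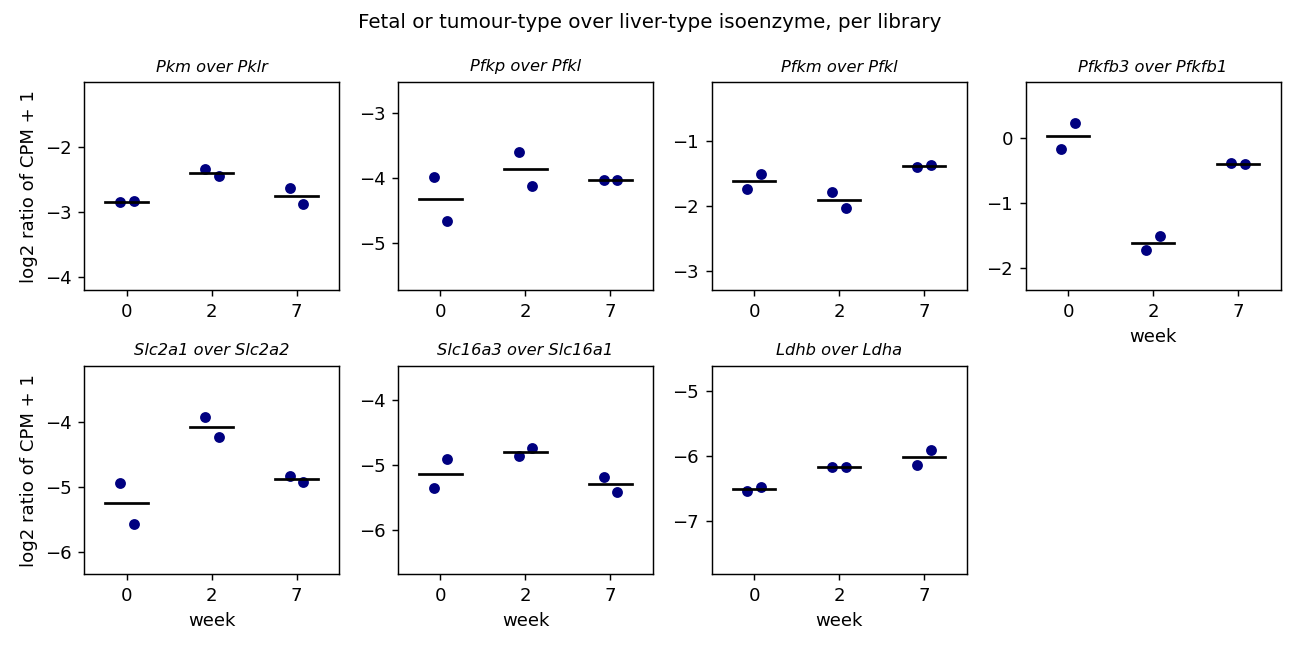
Log2 ratio of the non-liver to the liver isoenzyme for 7 pairs in each library (points) with the mean of each week (line), from CPM plus a prior of 1, with weeks on the x axis and the same y span in every panel. Week 2 lay above week 0 for Pkm over Pklr and Slc2a1 over Slc2a2, and below it for Pfkfb3 over Pfkfb1; week 7 overlapped week 0 for Pkm over Pklr.

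Around these 34 genes, 96 other genes of sugar metabolism and its regulation were listed, and 93 were tested. Of them 18 rose and 4 fell at week 7 against week 0, and 15 rose and 20 fell at week 2 against week 0. That is 23.7% called at week 7 and 37.6% at week 2, against 13.8% and 18.6% of all genes tested, again not matched for level. With library totals alone, 22 rose and 3 fell at week 7 and 16 rose and 9 fell at week 2, so the split at week 2 turned with the scaling. Leaving out 1 library gave 11 to 17 higher and 2 to 4 lower at week 7, and 8 to 13 higher and 10 to 20 lower at week 2. Among the enzymes close to the pathway, Gpd2, the mitochondrial glycerol 3-phosphate dehydrogenase, was at 72.7 and 75.4 CPM at week 7, against 43.4 and 41.2 CPM at week 0 (log2 fold change 0.81, adjusted p = 0.000286). Got1, the cytosolic aspartate aminotransferase, was at 223 and 214 CPM at week 2, against 46.4 and 47.8 CPM at week 0 (log2 fold change 2.21, adjusted p = 1.73e-08), and at 51.6 and 51.6 CPM at week 7 (adjusted p = 0.16 against week 0). Gpd2 had a high level at week 7 and Got1 at week 2. Mpc2, a subunit of the mitochondrial pyruvate carrier, was at 245 and 253 CPM at week 0, 364 and 357 CPM at week 2 and 212 and 201 CPM at week 7; it fell at week 7 (log2 fold change -0.27, adjusted p = 0.00396) and rose at week 2 (0.53, adjusted p = 3.96e-05). Slc16a7 (MCT2) rose by 0.54 on the log2 scale at week 7 (adjusted p = 0.00442) and 1.43 at week 2 (adjusted p = 8.27e-06) against week 0.

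Of 12 pyruvate dehydrogenase genes 2 rose at week 7 against week 0, and at week 2 against week 0, 4 rose and 2 fell. The week 7 count, 16.7% of the list, was near the 13.8% of all genes, while that of week 2 was 6 of 12, against 18.6% of all genes, and ranged from 1 to 4 higher and 1 to 3 lower when 1 library was left out. Pdk2, a kinase that switches the complex off, rose by 0.42 on the log2 scale at week 7 (adjusted p = 0.00132). Pdpr, a regulatory subunit of the phosphatase that switches it on, fell by 0.82 at week 2 (adjusted p = 0.00203). Of 17 glycogen genes 1 rose and 1 fell at week 7, and 5 fell at week 2, or 11.8% at week 7, close to all genes, and 29.4% at week 2. The number that fell at week 2 was 2 with library totals alone, and 2 to 5 when 1 library was left out. Ppp1r3b, which brings a phosphatase to glycogen, was at 187 and 177 CPM at week 7, against 291 and 270 CPM at week 0 (log2 fold change -0.62, adjusted p = 9.05e-05), and Gys2, the liver glycogen synthase, fell by 0.84 at week 2 (adjusted p = 1.61e-05). Of 8 pentose phosphate genes none rose and 1 fell at week 7, or 12.5%, against 13.8% of all genes. That gene, Rpe, was not called with library totals alone (adjusted p = 0.0533), with only the 4 libraries compared (0.0691) or with the replicate block (0.0575). Of 7 genes of fructose and galactose breakdown 2 rose and none fell at week 7, or 28.6%, against 13.8% of all genes. Tkfc, the triokinase, was at 248 and 238 CPM at week 7, against 181 and 183 CPM at week 0 (log2 fold change 0.42, adjusted p = 0.000315).

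Of 24 regulators of the pathway, 8 rose and none fell at week 7 against week 0, while 2 rose and 8 fell at week 2 against week 0. Of all genes tested, 7.58% were called higher at week 7 and 8.81% lower at week 2. With library totals alone 4 of the 24 fell at week 2, and leaving out 1 library gave 5 to 7 that rose at week 7 and 4 to 8 that fell at week 2. Myc, a transcription factor whose targets include glycolytic genes, was at 2.89 and 2.61 CPM at week 0, 3.72 and 4.09 CPM at week 2 and 13.3 and 12.2 CPM at week 7. Its rise at week 7 against week 0 was 2.21 on the log2 scale (adjusted p = 0.000106). Srebf1, the insulin-responsive factor of lipid synthesis, was at 310 and 290 CPM at week 7, against 172 and 182 CPM at week 0 (log2 fold change 0.76, adjusted p = 3.28e-05). Ppargc1a, a coactivator of gluconeogenesis genes, rose by 1.32 at week 7 (adjusted p = 0.00355) and 1.75 at week 2 (adjusted p = 0.000447). Mlxipl, which encodes the glucose-sensing factor ChREBP that activates Pklr, was at 99.2 and 94.7 CPM at week 7, against 104 and 106 CPM at week 0 (adjusted p = 0.236), and fell by 0.48 at week 2 (adjusted p = 0.000509). No link between a regulator and a target was tested.

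The other genes chosen by the same rule are given by their log2 fold changes. At week 7 against week 0, these were 0.98 for Slc2a5 (a fructose transporter), 0.41 for Ldhd (D-lactate dehydrogenase), -0.34 for Mpc1, 0.49 for Dlat, 0.55 for Phka2, -0.33 for Rpe and 0.23 for Khk (fructokinase). Of these 7, the call of Slc2a5 alone was kept when any single library was left out. The calls of the other 6 were lost without week 0 replicate 1 (adjusted p between 0.0525 and 0.139), and the highest adjusted p was 0.163, for Ldhd without week 7 replicate 1. At week 2 against week 0, Cebpb fell by 0.71, H6pd by 0.36 and Ppp1r3b by 0.35 on the log2 scale, and these calls were kept when any single library was left out. The log2 fold changes of Eno1b (0.26), Adpgk (-0.60), Gpd2 (-0.33), Slc2a5 (-0.64), Pdk2 (0.28), Pdk4 (1.37), Pdhb (-0.36), Rpe (0.34), Galk1 (0.27), Sord (-0.12) and Cebpa (0.18) were called, but each call was lost without at least 1 library of weeks 2 or 0. The highest adjusted p among them was 0.26, for Eno1b without week 2 replicate 2. With library totals alone Adpgk, Gpd2, Slc2a5 and Sord were also not called, and the log2 fold change of Sord was -0.03 (adjusted p = 0.667).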

How the data were processed

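Poly-A RNA of 6 mouse liver samples had been made into paired-end libraries with the TruSeq V2 kit, which does not mark strand, per the labels' protocols. The authors deposited 1 table of expected counts per gene; its values were whole numbers, and rounding altered 0. The submitters' processing notes name Bowtie 0.12.2 and mm8 without a role, and the program that counted the reads and its gene models were not given in the sources used here. Values at a multiple of 4 or 1 above it made up 68.3% to 69.6% of those between 4 and 43 per library. Evenly spread values would fall there about as often as not. So 1 read pair may be worth about 4 counts, which was assumed for the floor of 12 counts. Of the identifiers, 54409 matched a symbol of GENCODE M21 (GRCm38); its merged exon lengths gave levels per kilobase. Floors cover counting error only. Standard errors were derived from the edgeR test, as the absolute log2 fold change divided by the square root of the F value. They include the spread between libraries.

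The 6 libraries were fitted together in edgeR 4.0.16 (R 4.3.3, limma 3.58.1) with TMM scaling, filterByExpr, robust quasi-likelihood and 1 coefficient per week, leaving 3 residual degrees of freedom; 15368 genes were tested in 3 comparisons. Tests were 2-sided with Benjamini-Hochberg adjustment over all genes. Scaled CPM and isoenzyme ratios (prior 1 CPM; 0.1 and 5 as alternatives) were computed from the deposited counts, with Python 3.11.15, pandas 2.3.3 and matplotlib 3.10.9. Alternatives were other scalings, filters, DESeq2 1.42.0, 4 libraries, replicate blocks, counts divided by 4, an adjusted p under 0.01 and each library left out. The procedure was tested on simulated data. All 34 genes are named; of each other pathway list, up to 2 called genes per direction by adjusted p in each treated week against week 0, and of marker lists the sums. The genes and lists were chosen with earlier results of these data known. Promoters are from RefSeq (GRCm38.p6); all 34 genes matched, with 53 windows. Some further genes of the pathway are not reported here.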

Additional observations from a re-analysis of the deposited data

How the results depend on the processing

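Of the genes called at week 7 against week 0, 4 of 12 kept their call in each of 15 alternatives (Eno1, G6pc, Pfkfb3 and Pklr); at week 2 against week 0, 5 of 17 did (Fbp1, G6pc, Pcx, Pfkfb3 and Slc37a4), and at week 7 against week 2, 4 of 11 (Fbp1, Gapdh, Pfkfb3 and Pklr). No called gene changed sign in these alternatives. With an adjusted p under 0.01, the counts were 5 (3 higher, 2 lower), 7 (3 higher, 4 lower) and 4 (2 higher, 2 lower) of the 34 genes, and 1008, 1574 and 1632 of all genes, in the same order of comparisons. Leaving out 1 library gave 6 to 9, 7 to 15 and 4 to 12 of the 34 genes (higher 3 to 7, 4 to 9 and 2 to 8; lower 2 to 3, 3 to 6 and 2 to 4), and 1298 to 1856, 1801 to 2752 and 1842 to 2961 of all genes. A left-out library leaves 1 sample in a week, which is assumed to vary like the other weeks. Genes lower at week 7 against week 0 numbered 2 when only the 4 libraries compared were fitted and 2 with the replicate block. Genes lower at week 2 against week 0 numbered 3 with library totals alone. At week 7 against week 2, upper-quartile scaling gave 4 higher and 7 lower. The cause of these shifts was not tested. Same-numbered libraries did not deviate together (correlations of 0.0201, -0.203 and -0.13 over 5139 genes), so no pairing by number was seen. With 1 difference between libraries per week, this cannot exclude a pairing. The replicate block gave 8, 14 and 9 of the 34 genes, with 5 lower at week 2 against week 0. A crossed replicate block with the week 7 numbers swapped, chosen after seeing the data, gave 11, 14 and 11 (5 lower at week 2 against week 0). DESeq2 called 13, 17 and 12. Of 21 changes in isoenzyme ratio, 17 kept their sign under priors of 0.1 and 5 CPM and with each library left out; at week 7 against week 0, Pkm over Pklr ranged between -0.04 and 0.21, and Slc2a1 over Slc2a2 between 0.06 and 0.69. With 2 libraries a week and 3 residual degrees of freedom, the standard error of the log2 fold change at week 7 against week 0 was 2.91 for Eno2 and 1.87 for Slc16a3, at or near the floor, and 0.433 for Pfkp, 0.426 for Hk2, 0.321 for Eno3, 0.256 for Gpi1, 0.231 for Hk1 and 0.23 for Pck2; of these, Gpi1 alone was above 10 CPM.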
